A study of Mus musculus with 101 samples.

Results

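The regions described are 112 promoters of germline genes, measured for CpG methylation in 85 columns of mouse embryonic stem (ES) cell lines. They are the rows of the authors' category germline_Dahlet with a value in at least 80% of the lines, which is 68 of 85. Of the 124 rows of that category, 9 had values in fewer lines, and the rows at Asz1, Dnmt3l and Morc1 were set aside by name. The 112 members stand among 787 regions kept by the same 80% filter, of 868 regions in all. Each member region spans 500 bases.

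The lines came from Diversity Outbred mice, an outbred stock bred from several inbred founder strains, and all were grown with serum and LIF plus 2i, which is a pair of kinase inhibitors that hold mouse ES cells in a naive pluripotent state. Methylation was read by EM-seq, in which enzymes convert unmethylated cytosines so that methylated ones can be told from them in the reads, after capture of chosen regions with a Twist panel. The labels gave no genotype, sex or treatment that differed between the lines, and the only grouping in the line names was a prefix, B1 (28 lines), B2 (18), B3A (20) or B3B (19), which the sources used here do not explain. A methylation level below is the authors' average fraction over a region, given as a percent, and the read depth behind it is unknown. Outbred lines can differ in sequence, and variants at CpGs or motifs, which could change a value, were not examined.

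Genes used only in germ cells are silent in most other cells, and many of them have CpG-rich promoters that are kept silent by DNA methylation. The methylation is laid down after implantation, largely by the enzyme DNMT3B. In naive ES cells, where DNA methylation is low, the polycomb complex PRC1.6 also holds many of these promoters silent. Its subunits E2F6 and MGA recognise the E2F letters TCCCGC and the E-box letters CACGTG, respectively.

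A promoter window from RefSeq for assembly GRCm38.p6, which has the coordinates of mm10, 250 bases before to 50 bases after a gene's start, matched 85 of the 112 members, and 27 had no match. The gene start lay within 60 bases of the region's centre at 77 of those 85. The members held a median of 13 CpGs in the window, against a median of 13 over all kept regions with a window. A set of 6 is printed here as examples of weakly and strongly methylated members; its members were picked with their levels and CpG numbers in view, so their contrast is an illustration only. The stretches are shown 5′ to 3′ on the gene's strand as the 250 bases that end just before the start, with every CG in capitals. Mei4, needed to form the DNA breaks of meiosis, lies on the plus strand at chr9:81863420-81863669. Stag3, the cohesin subunit of meiotic chromosome axes, is on the plus strand at chr5:138280259-138280508. Meioc, which holds germ cells in the meiotic programme, is on the plus strand at chr11:102665335-102665584. Tnp1, a transition protein that replaces histones in spermatids, is on the minus strand at chr1:73015900-73016149. Cox7b2, a testis form of a cytochrome oxidase subunit, is on the minus strand at chr5:71548206-71548455. Ppp1r14bl, named for its likeness to a phosphatase inhibitor gene, is on the minus strand at chr1:23102254-23102503.
Mei4: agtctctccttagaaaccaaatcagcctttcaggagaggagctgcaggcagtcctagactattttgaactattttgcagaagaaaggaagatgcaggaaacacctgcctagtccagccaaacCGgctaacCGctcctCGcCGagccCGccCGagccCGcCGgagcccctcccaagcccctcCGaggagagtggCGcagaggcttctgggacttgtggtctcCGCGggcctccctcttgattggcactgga
Stag3: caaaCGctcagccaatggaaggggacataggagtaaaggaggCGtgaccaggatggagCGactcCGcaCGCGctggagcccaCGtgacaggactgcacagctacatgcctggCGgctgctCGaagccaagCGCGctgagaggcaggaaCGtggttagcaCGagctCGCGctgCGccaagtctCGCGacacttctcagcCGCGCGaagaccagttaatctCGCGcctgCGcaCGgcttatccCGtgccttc
Meioc: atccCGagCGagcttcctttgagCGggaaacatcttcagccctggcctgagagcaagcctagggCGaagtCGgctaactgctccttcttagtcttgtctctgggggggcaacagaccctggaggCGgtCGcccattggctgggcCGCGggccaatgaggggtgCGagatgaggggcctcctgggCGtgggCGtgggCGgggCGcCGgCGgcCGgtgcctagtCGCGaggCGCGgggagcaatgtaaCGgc
Tnp1: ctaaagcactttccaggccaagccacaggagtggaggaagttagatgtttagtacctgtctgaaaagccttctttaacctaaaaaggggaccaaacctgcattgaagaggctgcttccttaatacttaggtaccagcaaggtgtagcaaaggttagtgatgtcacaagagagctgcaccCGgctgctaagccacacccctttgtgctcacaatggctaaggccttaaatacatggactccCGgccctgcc
Cox7b2: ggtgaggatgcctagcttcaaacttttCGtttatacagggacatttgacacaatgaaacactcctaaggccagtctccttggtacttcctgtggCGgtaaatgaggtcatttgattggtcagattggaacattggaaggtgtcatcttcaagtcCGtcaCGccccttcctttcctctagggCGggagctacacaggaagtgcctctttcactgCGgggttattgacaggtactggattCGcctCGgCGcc
Ppp1r14bl: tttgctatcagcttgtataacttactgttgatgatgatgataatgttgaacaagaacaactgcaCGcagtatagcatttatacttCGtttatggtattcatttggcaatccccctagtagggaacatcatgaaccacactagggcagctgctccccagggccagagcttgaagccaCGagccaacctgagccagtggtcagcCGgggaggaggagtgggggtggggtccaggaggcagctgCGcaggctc

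The printed stretches of Mei4, Stag3 and Meioc hold 12, 26 and 22 CpGs, and their regions averaged 0.390%, 2.60% and 4.77% methylation over the lines. Those of Tnp1, Cox7b2 and Ppp1r14bl hold 2, 9 and 5 CpGs, and their regions averaged 46.3%, 50.3% and 59.9%.

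Across all members the mean over lines ran from 0.153% at the region of Rpph1 and Parp2 to 59.9% at Ppp1r14bl, with a median of 16.5%. Over all 787 kept regions the median was 15.7%. Members below 5% numbered 21, which is 18.8% of them against 27.1% of all kept regions. Those above 40% numbered 17, or 15.2% against 12.2% of all kept regions. The lines spread widely at most members: the median SD between lines was 11.3 points, against 11.4 over all kept regions, and 20 members, or 17.9% against 15.6% of all, went from under 5% in 1 line to over 80% in another. At the other end, 9 members stayed under 10% in every line with a value, which is 8.04% against 18% of all kept regions. The spread followed the level, with a Spearman rho of 0.959 between mean and SD over the 112 members, which share their lines.

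**Figure D1:**
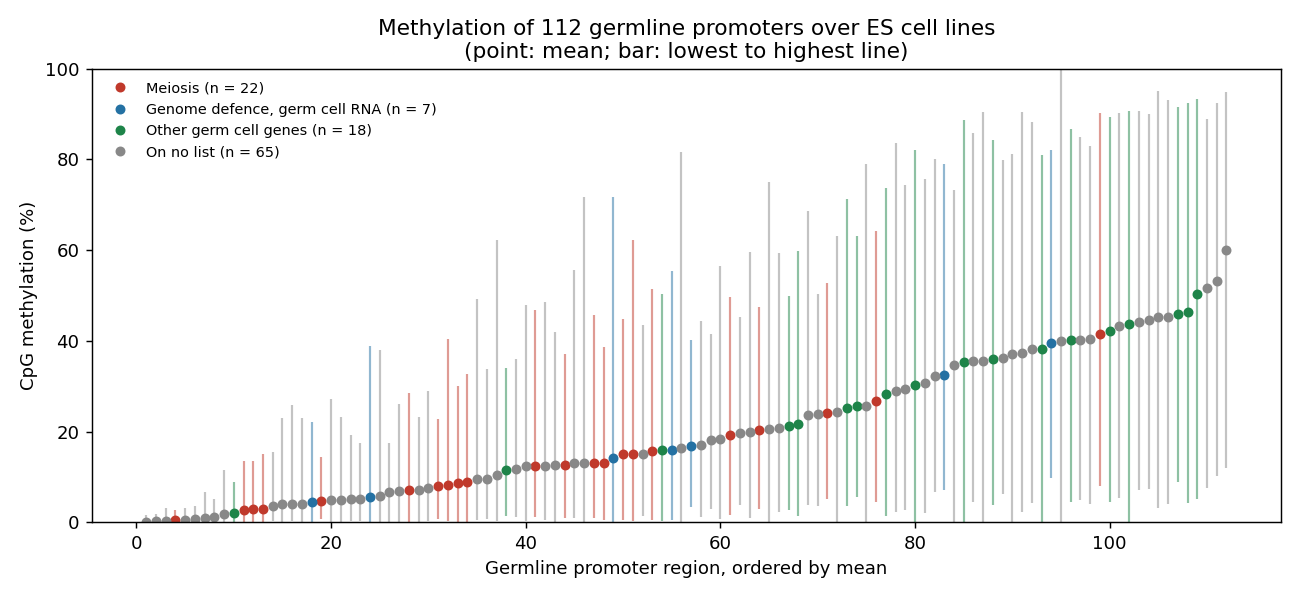
Methylation in percent of each of the 112 germline promoters, ordered by mean on the x axis, where the point is the mean over lines and the bar runs from the lowest to the highest line. The means climb from 0.153% to 59.9%, and the bars lengthen with them.

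At Ppp1r14bl (chr1:23102003-23102503) the lowest line had 12%, the median line 62.5% and the highest 94.9%. No line fell below 5% there, and 60 of 85 lines exceeded 50%. Cox7b2 (chr5:71547955-71548455) ran from 5.18% through a median of 51.3% to 93.2%. Lines at both regions thus ran from mostly unmethylated to nearly fully methylated, and a percent in a culture does not tell whether some cells were fully methylated or all cells partly. Fabp9, a fatty acid binding protein of sperm, averaged 51.7% ± 19.9 (SD, n = 85), and 1700080O16Rik on the X averaged 53.1% ± 23.7 (SD, n = 82). The 6 highest means also took in Tnp1 (46.3% ± 22.5, n = 84) and Tuba3b, a testis alpha-tubulin (45.8% ± 21, n = 85).

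The 6 lowest means were those of Rpph1/Parp2, Gm42029/Dnajb1, Kdm4d, Mei4, Rbmxl2 and Lncenc1. Rpph1, the RNA of RNase P, and Parp2, a DNA repair enzyme, are active in most cells, as is the chaperone Dnajb1, and their regions averaged 0.153% ± 0.278 (SD, n = 84) and 0.201% ± 0.268 (n = 85). The median line was listed at 0 for Rpph1/Parp2, and the highest at 1.62%. Kdm4d, a testis histone demethylase, averaged 0.278% ± 0.492, and Rbmxl2, a splicing factor of spermatocytes, 0.530% ± 0.565 (n = 85 each). Lncenc1, a noncoding RNA abundant in naive ES cells, averaged 0.609% ± 0.680 (n = 85) with a highest line of 3.52%. That was the highest value in any line at any of these 6 regions.

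Meiosis genes made up 22 members, with a median region mean of 12.5% and a range from 0.390% to 41.5%. Mei4 (chr9:81863454-81863954) was lowest: its lowest line was listed at 0, its median line at 0.298% and its highest at 2.64%. Stag3 (chr5:138280258-138280758) ran from 0 through 1.72% to 13.5%. Smc1b, another meiotic cohesin subunit, averaged 2.94% ± 2.93, and Hsf2bp, which helps load recombinases, 2.85% ± 3.18 (SD, n = 85 each). These 4 stayed at or below 15% in every line. The synaptonemal complex, the protein zipper between paired chromosomes, was less uniform. Its lateral element genes Sycp3 and Sycp2 averaged 20.3% ± 9.96 and 13.1% ± 7.95, and its transverse filament gene Sycp1 24.2% ± 11.2. The central element genes ran from Syce1 at 8.02% ± 4.98 through Tex12 at 19.3% ± 11.5 to Syce3 at 26.7% ± 15.8 (n = 85 for each of these 6).

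Among regulators of meiotic entry, Stra8, the retinoic acid target that starts meiosis, averaged 8.96% ± 7.40 (SD, n = 84). Sohlh1 and Sohlh2, a pair of related transcription factors of early spermatogenesis and oogenesis, stood apart from each other at 41.5% ± 18.1 and 14.9% ± 9.69 (n = 85 each). Sohlh1 (chr2:25846998-25847498) was the highest of the meiosis list, with a lowest line of 7.97%, a median of 40.8% and a highest of 90.2%. The axis genes Hormad1 and Hormad2 averaged 12.4% ± 10.3 and 8.30% ± 9.0. Rec114, a partner of Mei4 in break formation, averaged 15% ± 14.3, well above the level of Mei4, with lines from 0.376% to 62.3%.

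Genome defence and germ cell RNA genes gave 7 members, with a median region mean of 16%. Tex19.2, a paralog of the retrotransposon-controlling Tex19.1, was highest at 39.6% ± 18.2 (SD, n = 85), from 9.82% in the lowest line through 37.9% to 82.1% in the highest. Gtsf1, a piRNA pathway factor, followed at 32.5% ± 16.3, with a lowest line of 7.03% and a highest of 79.0%. No line was under 5% at either. Henmt1, which caps the ends of piRNAs with a methyl group, averaged 16.7% ± 8.35, the mitochondrial piRNA factor Gpat2 16% ± 11.6 and the chaperone Fkbp6 14.2% ± 13.4. The lowest were Rnf17, a tudor protein of spermatids, at 5.57% ± 7.10 and Rpl10l, a testis ribosomal protein, at 4.55% ± 5.03 (n = 85 for each of these 5).

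Other spermatogenic and oocyte genes gave 18 members with a median region mean of 32.8%, and only Zp3, a protein of the egg coat, averaged under 10%, at 1.98% ± 1.85 (SD, n = 85). Beside Cox7b2, Tnp1 and Tuba3b, they included Dpep3, a testis dipeptidase, at 42.1% ± 21.5 (chr8:105979179-105979679). The maternal genes Nlrp5 and Nlrp14, needed in the egg for early development, averaged 35.9% ± 21.9 and 28.3% ± 18.3 (n = 85 each). Nlrp5 ran from 3.86% through 32.9% to 84.2%. Spaca1 and Tuba3a, an acrosome protein and a testis tubulin, averaged 25.6% ± 13.4 (n = 84) and 25.3% ± 16.1 (n = 85). Tuba3a and Tuba3b are close copies of each other, as are Prr23a2 and Prr23a3 and the Pramel genes, so reads of such regions may be hard to place and their values are uncertain. The 65 members on none of these lists had a median of 16.9%.

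The 13 members on the X chromosome had a median of 35.5% (6.95% to 53.1%), against 15% for the 99 autosomal members. Each X member lacked a value in at least 1 line, whereas 81 autosomal members had a value in every line. Members that lacked a value, 31 in all, had a median of 34.6%, against 14.2% for the 81 complete ones. The sources used here do not give the sex of the lines, and the part of missing values, depth or X dosage in the higher X level was not tested. Just inside the 80% filter, with 68 lines each, were Usp26 on the X (43.8%) and Pramel1 (7.21%), then Ctag2l1 on the X (39.9%) and the unnamed chromosome 6 region at 88950432 (25.7%) with 73 lines each. Just outside it were Pramel3 with 66 lines (55.9%), a chromosome 7 region starting at 24676425 with 65 (39.3%), and Abca16, Tsga8 and Gm41 with 62 each (32.9%, 42.0% and 47.0%).

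Members with the most CpGs in the promoter window had the lowest levels. The 22 matched members with 0 to 9 CpGs in the promoter window had a median of 19.3%, the 30 with 10 to 14 had 23.9%, the 15 with 15 to 19 had 12.9% and the 18 with 20 or more had 5.83%. Over the 85 matched members Spearman's rho between level and CpG number was -0.377, over the 74 autosomal ones -0.354 and over the 11 on the X 0.0549. The relation was loose: Lncenc1, with 4 CpGs, averaged 0.609%, and Nxf2 on the X, an mRNA export factor of germ cells with 20 CpGs, averaged 40.2%. GC content in the same window had a rho of -0.148 with level.

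**Figure D2:**
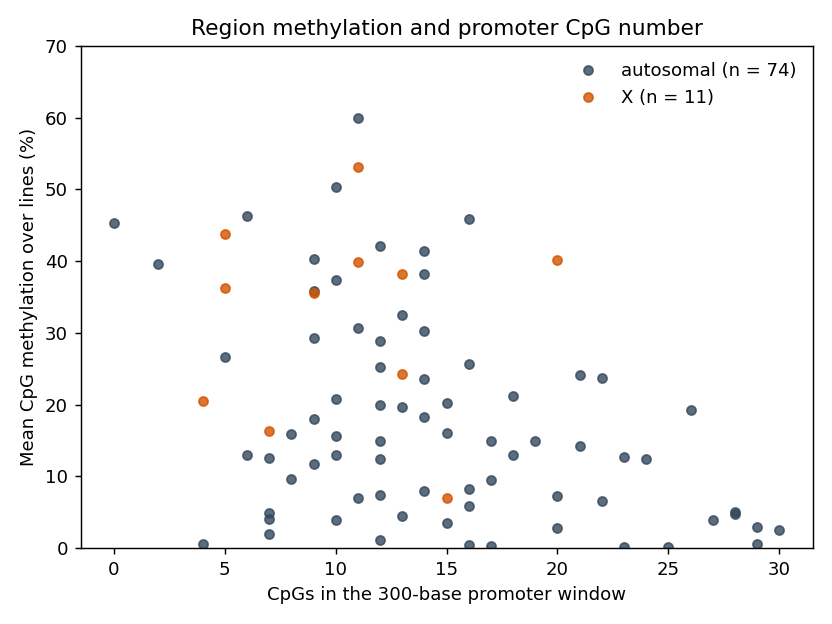
Mean methylation in percent over lines against the number of CpGs in the promoter window, 1 point for each of the 85 members with a window, autosomal or X. The members with 20 or more CpGs have a median of 5.83%, and points spread widely among those with fewer.

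The E2F letters TCCCGC, searched on both strands in the promoter window, were present in 28 of the 85 windows, or 32.9%, against 19.98% of all 32851 RefSeq windows of the same length. The E-box letters CACGTG, which read the same on both strands and can share at most 1 letter with the E2F letters, were in 22 of 85, or 25.9%, against 7.15% of all windows. The windows of all RefSeq genes hold a median of 7 CpGs, fewer than the members' 13, and the shares were not adjusted for that. Members with CACGTG had a median of 19 CpGs in the window and those without it 12, so CpG number and this motif went together here. The median levels with and without CACGTG were 15.6% and 16%, and those with and without the E2F letters 14% and 18.3%. A match of letters is a description and shows no binding.

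A set of 3 meiotic promoters that hold both motifs is printed with TCCCGC or its reverse complement GCGGGA and CACGTG in capitals, as the 250 bases before the start on the gene's strand. They are Hormad1 on the plus strand at chr3:95559427-95559676, Sycp3 on the plus strand at chr10:88459337-88459586 and Tex12 on the minus strand at chr9:50561269-50561518.
Hormad1: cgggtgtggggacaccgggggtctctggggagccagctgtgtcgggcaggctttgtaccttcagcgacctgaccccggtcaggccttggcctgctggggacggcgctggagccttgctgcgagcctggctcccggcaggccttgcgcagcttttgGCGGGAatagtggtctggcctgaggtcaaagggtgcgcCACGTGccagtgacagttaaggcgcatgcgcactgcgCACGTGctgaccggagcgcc
Sycp3: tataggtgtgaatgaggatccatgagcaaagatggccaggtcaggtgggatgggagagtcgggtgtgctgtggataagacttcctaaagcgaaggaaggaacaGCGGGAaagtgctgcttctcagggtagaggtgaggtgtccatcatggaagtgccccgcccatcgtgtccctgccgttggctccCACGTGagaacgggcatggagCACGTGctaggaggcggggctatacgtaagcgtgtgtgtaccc
Tex12: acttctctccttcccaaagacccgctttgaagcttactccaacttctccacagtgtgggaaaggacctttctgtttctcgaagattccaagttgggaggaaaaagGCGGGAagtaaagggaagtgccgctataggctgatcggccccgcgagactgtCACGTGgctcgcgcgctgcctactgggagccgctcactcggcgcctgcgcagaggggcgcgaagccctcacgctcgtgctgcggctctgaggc

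At Sycp3 the CpGs of the E-boxes, 62 and 41 bases before the start, averaged 2.73% ± 2.93 and 5.22% ± 5.01 (SD, n = 85). They were the lowest of the 11 CpGs measured in that promoter. The CpG of GCGGGA, 146 bases before the start, averaged 39% ± 18.2, and the one 161 bases before it 53.5% ± 20.4. Even in the highest line the CpG at 62 bases had 11.1%, whereas the CpG at 161 bases had 92.1%. Each E-box CpG lay under the mean of its nearest flanking CpGs in 73 and 81 of 85 lines, in that order, where CpGs of other motif matches were passed over. At Hormad1 the E-box CpGs averaged 1.2% and 2.66%, again the lowest there, and the other measured promoter CpGs outside both motifs had a median of 11% with a lowest of 5.62%. Its GCGGGA CpG averaged 3.90%, below all of those others, whereas at Sycp3 the GCGGGA CpG lay above the median of the others, 16.6%. The E-box CpG of Tex12 averaged 5.24%, against a median of 13.1% for the other CpGs.

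Across the members with an E-box CpG and at least 3 other CpGs measured in the window, 13 regions held 18 such CpGs. Of these, 17 averaged below the median of the other CpGs in their own promoter, and 12 averaged below every one of them. The median difference from the other CpGs' median was -7.57 points, and that from the nearest flanking CpGs was -4.63 points. The exception was Prss38, a serine protease gene, where the E-box CpG had 7.87% and the other CpGs a median of 6.88%. For the E2F letters, 7 of 13 CpGs in 13 regions averaged below the median of the others, 1 of them below all, with a median difference of -0.253 points. In kept regions outside the members, 5 of 6 E-box CpGs in 5 regions were below the median of the others, though 2 of the 6 are the CpGs of Adad2 counted in a region of another category that shares bases with it. The rest of those below lay at Ddx4, Mlc1/Mov10l1 and Slc25a31, of another germline category of the authors. Mgll, the only gene there on none of the germ cell lists, had 0.473% against a median of 0.347%. These 6 CpGs are thus no background for promoters of other genes. The comparison of motif CpGs with other CpGs was chosen after the CpG values were seen, and no test was run on it. The 18 E-box CpGs lay a median of 51 bases from the gene start and the 13 E2F CpGs 58.

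The CpG table held 1044 CpGs in 80 members, and none for the other 32. In the 66 members with at least 5 CpGs, the lowest and highest CpG means within a region differed by a median of 17.3 points. The widest span was at Gtsf1 (chr15:103430220-103430720), where the CpG 5 bases after the start averaged 8.96% ± 8.73 (SD, n = 85) and the one 128 bases before it 67.4% ± 15.2. Sycp3 was next, then Timm8a2, a relative of a mitochondrial import gene, with 4.88% at the CpG 6 bases before the start and 52.3% at the one 180 bases before it.

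In Sycp3 the 2 measured CpGs more than 100 bases from the start averaged 46.2% and the 7 within 75 bases 11.7%, and the far ones were higher in 85 of 85 lines. At Gtsf1 the far and near means were 43% and 21.7%, and at Timm8a2 33.5% and 12%, with far above near in 84 of 85 lines at each. Adad2, an RNA-binding protein of male germ cells, gave 27.2% and 12.1%, again in 84 of 85 lines. Near and far pool both sides of the start, so a lower near mean need not be a dip at the start itself. No CpG of Sycp3 was measured downstream, and its CpG 19 bases before the start averaged 26.4%. At Adad2 CpGs more than 100 bases upstream averaged from 10.7% to 22.3%, and the highest CpG, 41.8%, lay 196 bases downstream. Lower levels near the start were no general feature of the members. Over the 39 members with CpGs in both zones, 22 were higher far from the start, with a median difference of 0.375 points. Taf7l2, a testis relative of a basal transcription factor, had the opposite order, with 13.5% far and 28.1% near and far above near in only 2 of 85 lines.

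**Figure D3:**
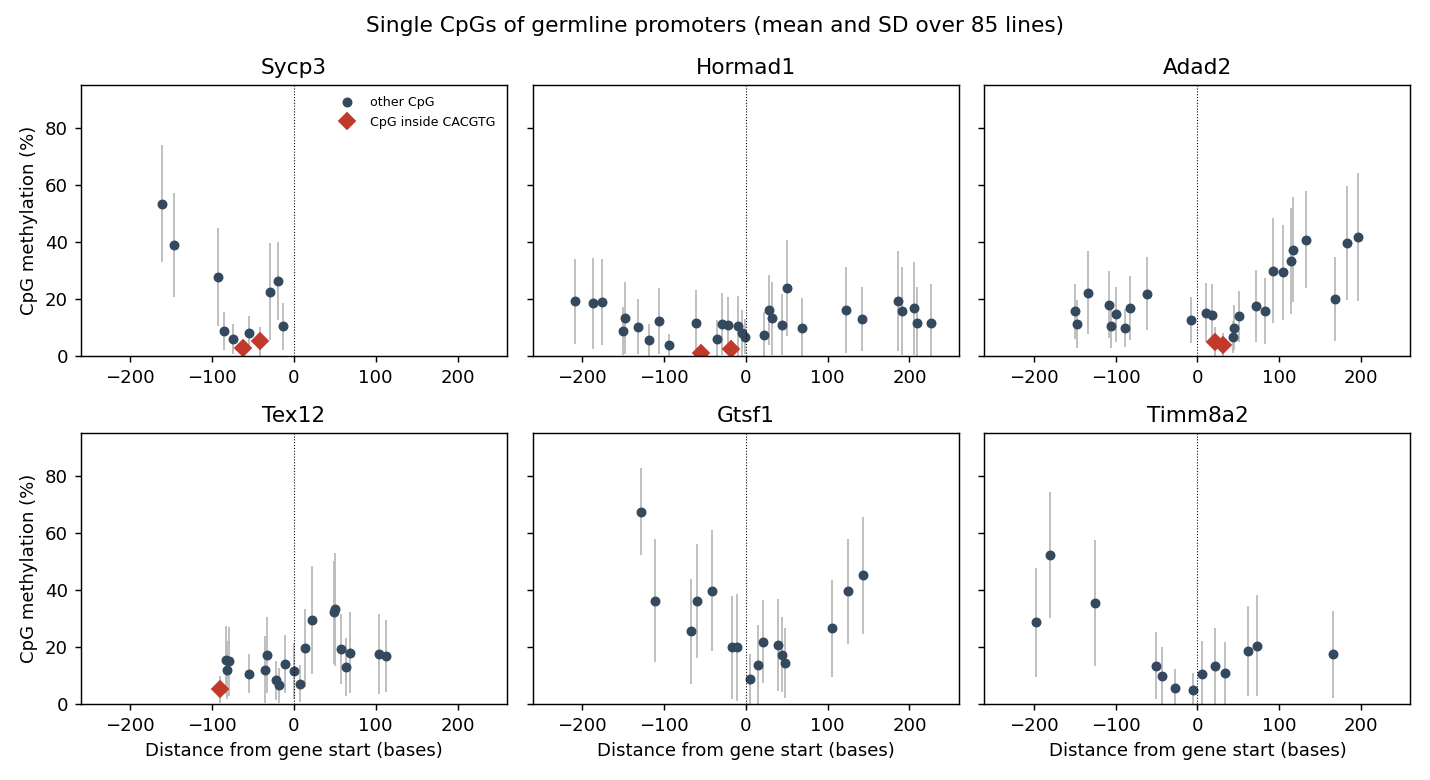
Methylation in percent of single CpGs against distance in bases from the gene start for Sycp3, Hormad1, Adad2, Tex12, Gtsf1 and Timm8a2; points are means and bars SDs over 85 lines (lower bars end at 0), and diamonds are CpGs inside CACGTG. The diamonds are the lowest points in the first 4 panels, and Gtsf1 and Timm8a2 dip at the start.

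Lines differed from each other at nearly all members at once. The mean over members in a line ran from 3.10% through a median of 18.4% to 48.1%. Between 9 and 82 members per line were under 5%, with a median of 27, and between 0 and 52 were over 50%, with a median of 5. The 672 kept regions of other categories moved with them, with Pearson's r = 0.992 and Spearman's rho = 0.989 over the 85 lines between the members' mean and theirs. The points of that comparison share a library and its conversion. Members were above the other categories in 74 of 85 lines. The median difference over all 85 lines was 1.19 points, and the members' mean rose by 1.09 points for each point of the others.

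**Figure D4:**
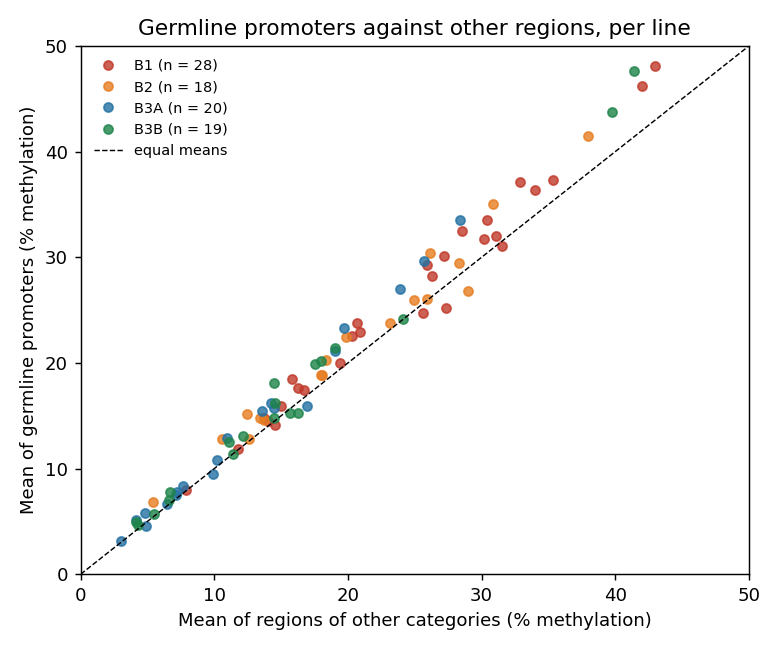
Mean methylation in percent of the germline promoters against that of regions of other categories, 1 point per line, coloured by prefix, with the line of equal means dashed. The 85 points follow 1 line (r = 0.992), and the 4 prefixes overlap.

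Single members followed the level of the other categories to different degrees. Pearson's r over lines had a median of 0.888, against 0.870 over all kept regions. It was 0.972 at its highest, and 79 members exceeded 0.8. The lowest values were -0.0154 at Gm42029/Dnajb1, 0.0984 at Kdm4d, 0.146 at Psma8, a testis proteasome subunit, and 0.161 at Rbmxl2, all with means under 1%. The 21 members averaging under 5% had a median r of 0.473, and the 17 averaging over 40% had 0.935. The regions whose values over lines were most like the members' mean were 1 without a gene name on chromosome 17 (chr17:12507709-12508209, r = 0.980), Cyp1a2 (r = 0.978) and Ly6g6c (r = 0.977), none of them in the germline category.

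Pairs of members had a median r of 0.758 over 6216 pairs, and 0.0788 once the level of the other categories was removed by regression from both. The highest remaining r were 0.708 between D1Pas1 and Rpl10l and 0.696 between Rbmxl2 and Kdm4d. Next came 0.683 between Rbmxl2 and Psma8 and 0.661 between Hormad2 and Stag3. In each of these pairs the genes lie on different chromosomes. They are the top of 6216 pairs, their cause was not tested, and the levels were low. Their regions averaged 3.51% (D1Pas1), 4.55% (Rpl10l), 0.530% (Rbmxl2), 0.278% (Kdm4d), 0.987% (Psma8), 8.30% (Hormad2) and 2.60% (Stag3). H2ac1 and H2bc1, neighbouring testis histone genes, share 196 bases of their regions and had r = 0.880. Adad2 and Fkbp6 share 366 and 179 bases with regions of other categories (r = 0.991 and 0.974), so these are partly the same measurement.

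The prefixes were compared per region with limma's moderated F test on log2 odds, adjusted over 787 regions by Benjamini-Hochberg. Adjusted p was under 0.05 at 97 of 112 members, or 86.6%, against a background of 81.6% of all kept regions. The members' share is thus close to that of the panel as a whole. Among the 97 members called, B1 had the highest mean at 85 and B2 at 12, and B3A had the lowest mean at 94. Over all members the B1 mean was the highest at 83.0% of them and the B3A mean the lowest at 92.9%, against 84.6% and 88.1% of all kept regions. With each library centred on its own mean, which balances the prefixes over the panel by construction, B1 was highest at 36.6% of members and B3A lowest at 33%, against 38.2% and 35.6% of all kept regions. The line means over members overlapped between prefixes, from 7.95% to 48.1% in B1, with 25.9% ± 10.1 (SD, n = 28) there, 22% ± 8.78 in B2 (n = 18), 14% ± 8.89 in B3A (n = 20) and 17% ± 11.6 in B3B (n = 19).

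The members with the smallest adjusted p by limma were Igbp1b, Ccdc152, Nlrp5, Btbd18 and Gtsf1. At Igbp1b, a relative of the phosphatase regulator gene Igbp1, lines ran from 25.3% through 69.3% to 95% in B1 and from 6.44% through 28.6% to 63.1% in B3A. B2 ran from 7.65% through 54.2% to 83.0% and B3B from 3.14% through 35.3% to 89.5%, so all 4 prefixes overlapped, and the adjusted p was 8.11e-05. B1 averaged 50.7% ± 19.5 at Nlrp5 (SD, n = 28), B2 35.3% ± 16 (n = 18), B3B 27.7% ± 22.2 (n = 19) and B3A 23.6% ± 18.5 (n = 20), with a limma adjusted p of 0.000135. Gtsf1 had 42.6% ± 15.7, 33.8% ± 12.7, 28.1% ± 16.4 and 21.6% ± 11.2 in the same order and numbers (limma adjusted p = 0.000178). Btbd18, a regulator of piRNA transcription, gave an adjusted p of 0.000171.

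By role, 21 of 22 meiosis members, 5 of 7 genome defence members and 18 of 18 other germ cell members were called, to be read against the 81.6% of all kept regions. Hsf2bp was the meiosis member not called (limma adjusted p = 0.0879), and Rnf17 and Rpl10l were those of genome defence (0.262 and 0.155). All 13 X members were called, and 84 of 99 autosomal ones. The 15 members not called averaged at most 7.21%, and 12 of the 15 averaged under 5%. Of the genes on the same lists in kept regions outside the members, limma called 2 of 5 for meiosis, 9 of 11 for genome defence, 2 of 2 for other germ cell genes and 3 of 5 for PRC1.6 and DNA methylation machinery. These counts take in Asz1, Dnmt3l and Morc1, set aside from the same category, and regions sharing bases with the members Adad2 and Fkbp6. Dnmt3l and Mael are each counted under a pair of lists.

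**Figure D5:**
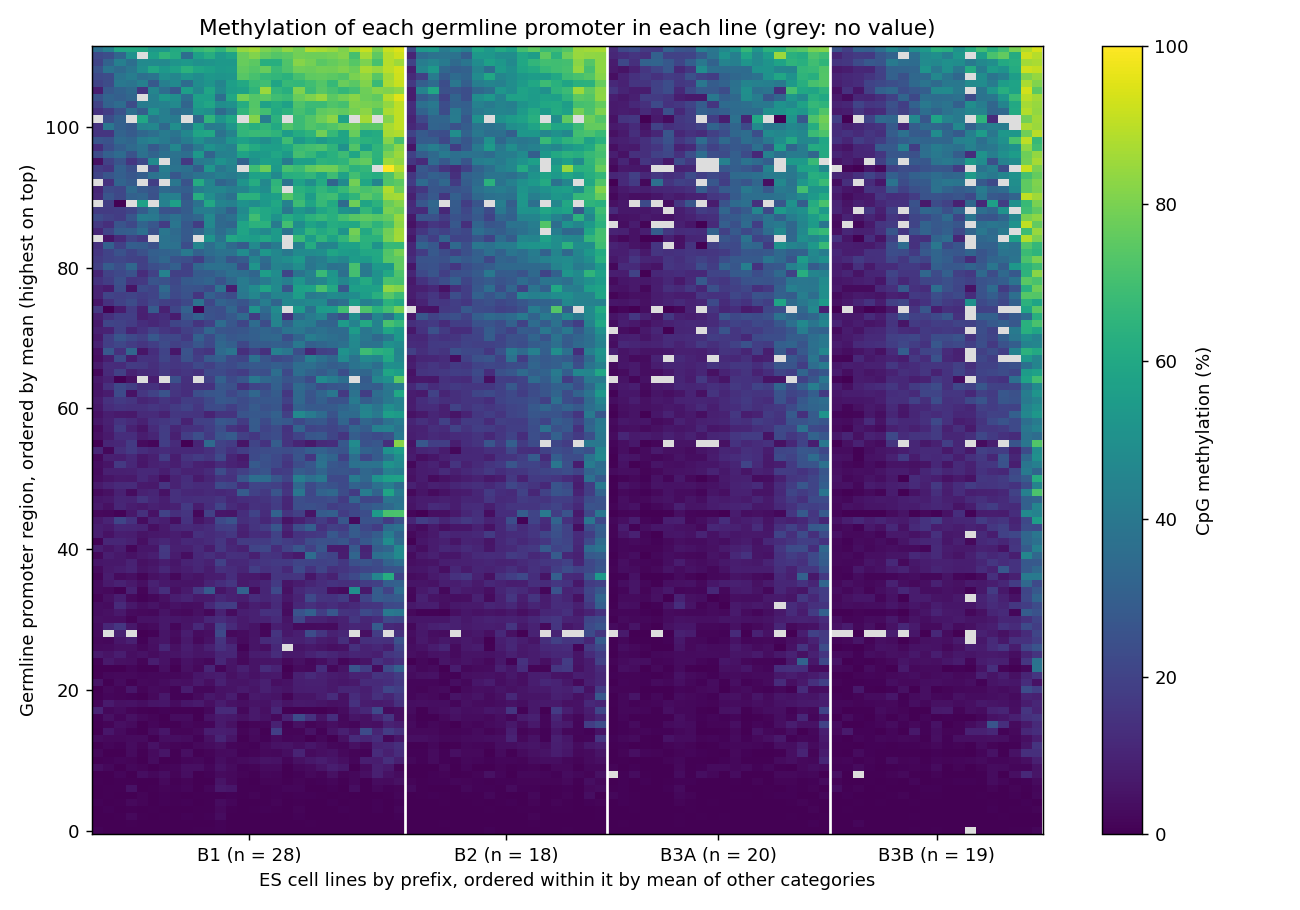
Methylation in percent (colour) of the 112 germline promoters, ordered by mean with the highest on top, in 85 lines grouped by prefix and ordered within it by the mean of other categories; grey cells have no value. Colour shifts along each prefix block in all but the lowest rows, and B3A holds more dark columns than B1.

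With the mean of each library over kept regions as a covariate, 5 of 112 members, or 4.46%, had a limma adjusted p under 0.05, against a background of 3.43%, again close to the share of the panel. They were Timm8a2 (adjusted p = 0.00511), Spaca1 (0.00751), Gm10754/Ccer1 (0.0336), Fam178b (0.0336) and Sycp3 (0.0436). At Timm8a2 lines ran from 4.75% through 25.9% to 59.3% in B2, from 2.33% through 22.4% to 58.9% in B1, from 3.84% through 14.6% to 57.1% in B3B and from 2.16% through 10.02% to 32.8% in B3A. B2 thus stood above B1 there, unlike at most members, and the same held at Spaca1, with 32.9% ± 11.8 in B2 (SD, n = 18) and 27.5% ± 13.4 in B1 (n = 28). Gm10754/Ccer1 had 47.3% ± 18.7 in B1 (n = 28), and the means of the other prefixes lay between 26.9% and 32.9%. Fam178b was not called without the covariate (limma adjusted p = 0.407), and B1 had its lowest mean, 3.07% ± 2.65, and B2 its highest, 5.34% ± 6.06. Sycp3 ran from 5.72% to 41.8% in B1, 11.5% to 46.9% in B2, 2.97% to 42.9% in B3A and 3.96% to 47.5% in B3B, and the prefixes overlapped at all 5 of these members.

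A final N in the column name moved with the prefix: 6 of 28 B1 lines carried it, none of 18 in B2, 16 of 20 in B3A and 9 of 19 in B3B. The sources used here do not explain it. Among columns without it, limma called 80 of 112 members (71.4%), against 67.3% of all kept regions, and the line means were 25.8% ± 11 in B1 (SD, n = 22), 22% ± 8.78 in B2 (n = 18), 9.30% ± 4.82 in B3A (n = 4) and 16.1% ± 12.1 in B3B (n = 10). Among the 31 columns with it, limma called 0 of 112 after adjustment, against 0.254% of all kept regions, and 31 at an unadjusted p under 0.05, against 264 of 787. The line means there were 26.3% ± 6.86 in B1 (n = 6), 15.2% ± 9.38 in B3A (n = 16) and 18% ± 11.8 in B3B (n = 9). Among the prefixes found in both sets, which leaves out B2, B1 was highest, then B3B, then B3A. Without the N, B2 lay between B1 and B3B, and B3A had only 4 lines.

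Target regions of marker genes of the cell type were checked by methylation alone, which does not measure their expression. Only regions that overlap a marker gene were matched, so regions wholly outside a gene were not looked at. Zfp42 and Tbx3 were the only naive genes matched, and other naive genes are not described here. Zfp42 and Tbx3, genes of naive pluripotent cells, averaged 0.792% ± 1.44 (SD, n = 80) and 0.191% ± 0.381 (n = 83). Otx2, active in primed cells, was at 0.822% ± 0.625 (n = 85), so these regions were low for both states. Lineage genes ranged from 3.77% at a region of Foxa2 to 56.7% at Pax6.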

How the data were processed

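The authors deposited average methylation fractions for 868 regions and fractions for 7917 CpGs in 85 columns, and the deposited tables' names give a coverage filter of 10. Bismark, Bowtie2, Trim Galore 0.6.4 and the build mm10 are named in the submitters' processing notes, with no role stated. Without read counts in the tables, no counting interval was computed. CpG positions are those of the C on the plus strand. Of 101 labelled libraries, 16 carry the suffix WA. In all, 44 columns matched 1 title, and 41 were used only by prefix. Of those 41, 16 were so used because the line has 2 titles and 1 because it has no title. The others have a final N that the title lacks. The check below on columns of lines with 1 title kept them, so it used more than the 44 matched columns. P-values measure only the spread between these columns, which may not be separate cultures.

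Deposited fractions f were turned into log2((f + 0.01)/(1 - f + 0.01)) and tested between prefixes with limma 3.58.1 in R 4.3.3 over 787 regions, with Benjamini-Hochberg adjustment at 0.05, and again with the library mean as covariate. Alternatives were the offset, no transform, stricter and looser filters, centring, subsets of columns, means recomputed from CpGs and a permutation F test with 100000 resamples. Means, SDs and plots were made in Python 3.11.15 with pandas 2.3.3, NumPy 2.4.6 and matplotlib 3.10.9. Genes were named from lists (meiosis, genome defence, other germ cell genes, PRC1.6 and DNA methylation machinery) and by rank: the 6 highest and 6 lowest means, the 5 largest SDs and smallest p, the 4 lowest r with other categories, the 3 widest CpG ranges, those called with the covariate and those beside the 80% filter. Taf7l2, Prss38 and the members named as correlated, overlapping or near-identical pairs fall outside that rule and were chosen after their values were seen. The members and lists were chosen with earlier results of these data known.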

Additional observations from a re-analysis of the deposited data

How the results depend on the processing

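The count of 97 members called between prefixes (86.6%, against 81.6% of all kept regions) stayed within 1.5 times under these alternatives, each given with the share of all regions called: a larger offset (94, 79.0%), no transform (82, 72.3%), regions with a value in every line (69 of 81, 83.1%), a looser filter (97, 80.8%), centring by the library mean (79, 77.3%), columns without a final N (80, 67.3%), columns of lines with 1 title (75, 69.1%) and the permutation F test (97, all shared, 83.1%). It fell to 5 (3.43% of all regions) with the library mean as covariate, where the cause was not tested, and to 0 (0.254% of all regions) among the 31 columns with a final N, where fewer lines were tested and B2 had none. With region means recomputed from CpGs it was 63 of 80 (79.4% of all regions), since 32 members had no CpG in the table, and the median SD between lines was 9.10 points against 10.2 for the same 80 members as deposited. Centring, which balances the prefixes over the panel by construction, left B1 highest at 41 of 112 members and B3A lowest at 37, against 93 and 104 as deposited. Of 64 named members, 49 lost their call with the covariate and 1 gained it. With centring 14 lost and 11 gained it. Centring subtracts the library mean from every region, so a region near 0 takes on the prefix difference of that mean with its sign reversed. Gm42029/Dnajb1, at 0.201%, thus went from a limma adjusted p of 0.8825 to 0.000496. The 79 calls with centring are therefore no check on the 97. The mean of Ppp1r14bl was 37.9% from its single deposited CpG, and the cause was not tested. The 46 other named means moved by less than 1 SD. That SD is the wide spread between lines, so shifts could still be large. Syce3 rose from 26.7% to 42.3% (SD 15.8), and Fabp9 fell from 51.7% to 45.4% (SD 19.9). No paired analysis between prefixes was possible because the labels give no replicate numbers. The numbers in the titles name lines, and nothing ties lines of different prefixes that share one. The name B37 of B1 occurs without and with the final N, with member means of 17.6% and 14.1%. Both columns were counted as separate lines, and the labels do not say whether they are. Depth is unknown, so counting error could not be separated from the spread between lines.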
